A study of Mus musculus with 8 samples.

Results

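The 7 genes of the platelet-derived growth factor (PDGF) system, which are 3 receptor genes (Pdgfra, Pdgfrb and Pdgfrl) and 4 ligand genes (Pdgfa, Pdgfb, Pdgfc and Pdgfd), were followed across 4 groups of immortalized mouse embryonic fibroblasts. They are 7 of 24062 genes in a table of 25215 entries that also counts 1153 repeat subfamilies. The set was chosen by the measured opposite shifts of Pdgfra and Pdgfrb under the inhibitor DS3201 in an earlier analysis of these same libraries, and the other members were added by family. Their values under DS3201 are therefore a description: no p-value is given for them there, and the number past the threshold in each fit stands only beside the share of all entries, with nothing read from it. Tests of members are those of the Ring1a knockdown and of the interaction. The gene lists read beside the members were also drawn up with earlier results of these data known. Adjusted p-values of list genes under DS3201 therefore describe them and are not independent tests. All 7 symbols were found. Of them, 6 passed the filter on low counts, and Pdgfrl, with at most 13 reads in any library, did not.

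The PDGF ligands are secreted dimers that bind receptor tyrosine kinases at the cell surface. Pdgfra encodes receptor alpha, which binds the A, B and C chains and marks mesenchymal and oligodendrocyte precursors. Pdgfrb encodes receptor beta, which binds mainly the B and D chains and is a marker of pericytes, smooth muscle precursors and fibroblasts. Fibroblasts classically carry both receptors and divide and migrate in response to PDGF. Pdgfrl encodes a secreted protein that resembles the receptors' extracellular part and has no kinase domain. The A and B chains are processed inside the cell, whereas the C and D chains carry a CUB domain that proteases remove outside it.

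The cells, 1 line sequenced as poly(A) RNA, lack Ring1b (a PRC1 gene) and 5 genes of H3K9 methyltransferases (Ehmt1, Ehmt2, Suv39h1, Suv39h2 and Setdb1) by their labels, and all groups share these 6 deletions. Cells with a control shRNA are called the control group, and those with a lentiviral shRNA against Ring1a (gene symbol Ring1) the knockdown group. Adding DS3201, which inhibits the H3K27 methyltransferases EZH1 and EZH2, at 1 uM for 7 days made the inhibitor group from the former and the combined group from the latter. The series title asks how H3K27me3 and the PRC1 pathway keep genes silent after H3K9 methylation is lost. The groups come from 1 cell line with no unedited parent among the libraries, and whether the line is 1 clone, and whether the libraries came from separate cultures, is not given in the sources used here, so p-values measure only the spread between libraries, which may be technical.

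Each group had 2 libraries (n = 2), 1 from set 20 and 1 from set 28, named by the prefix of their columns in the table. Total counts ran from 12738585 to 23688253. Values are CPM, the count scaled to a common library size with TMM, a normalization across libraries, and 3 counts, the floor used where a gene had 0, correspond to 0.122 to 0.265 CPM. Ring1, the targeted gene, was lower in each of the 4 libraries with the shRNA than in the paired library, by 2.14 and 2.69 log2 without DS3201 and by 2.50 and 1.82 log2 with it. The edgeR test on Ring1 gave -2.32 ± 0.76 (SE, adjusted p = 1) and -2.33 ± 0.76 (adjusted p = 1.00) and did not pass, nor did it with the set as a block (adjusted p = 0.705 and 0.594). The inhibitor library of set 28 stood apart, with the lowest scaling factor (0.889) and the highest share of counts in repeats (14.6%, against 8.59% to 12.95% in the others). The 2 inhibitor libraries correlated least with each other (r = 0.913 across tested entries, against 0.947 to 0.949 in the other groups), a value that singles out neither. Fibroblast markers were present throughout: 12 of 16 were at or above 1 CPM in all 8 libraries.

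Start-site windows of 300 bases (250 before and 50 after each annotated start) were taken from RefSeq on GRCm38.p6 and are given for 4 of the 7 members. No window was found for Pdgfb and Pdgfrl. Pdgfrb was left out of this search, so whether it has a window was not examined. The windows are shown because Pdgfa differs sharply from Pdgfra, Pdgfc and Pdgfd in CpG content, a feature that the choice of members did not use. A second reason is that Pdgfra is the tested receptor gene with the larger log2 difference under DS3201. Each is written 5′ to 3′ on the gene's strand in lower case, with every CpG dinucleotide in capitals. The windows are chr5:75152001-75152300 for Pdgfra, chr5:138994895-138995194 for Pdgfa, chr3:81036166-81036465 for Pdgfc and chr9:6168236-6168535 for Pdgfd.
Pdgfra: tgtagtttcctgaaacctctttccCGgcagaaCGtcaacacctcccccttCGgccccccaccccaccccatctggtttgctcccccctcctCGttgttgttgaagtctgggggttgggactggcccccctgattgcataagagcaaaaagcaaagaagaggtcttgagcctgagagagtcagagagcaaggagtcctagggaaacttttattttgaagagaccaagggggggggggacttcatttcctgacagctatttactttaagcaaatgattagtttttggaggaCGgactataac
Pdgfa: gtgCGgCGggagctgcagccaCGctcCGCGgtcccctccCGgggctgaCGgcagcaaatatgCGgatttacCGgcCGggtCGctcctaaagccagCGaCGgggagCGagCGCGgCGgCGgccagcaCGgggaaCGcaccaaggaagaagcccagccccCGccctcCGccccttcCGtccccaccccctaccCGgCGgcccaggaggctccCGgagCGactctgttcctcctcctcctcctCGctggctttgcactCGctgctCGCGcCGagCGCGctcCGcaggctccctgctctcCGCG
Pdgfc: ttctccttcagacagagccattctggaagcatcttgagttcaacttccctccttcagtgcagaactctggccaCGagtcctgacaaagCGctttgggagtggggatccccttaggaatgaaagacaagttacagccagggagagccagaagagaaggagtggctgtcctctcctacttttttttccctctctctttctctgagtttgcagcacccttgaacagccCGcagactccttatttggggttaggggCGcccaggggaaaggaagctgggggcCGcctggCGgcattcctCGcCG
Pdgfd: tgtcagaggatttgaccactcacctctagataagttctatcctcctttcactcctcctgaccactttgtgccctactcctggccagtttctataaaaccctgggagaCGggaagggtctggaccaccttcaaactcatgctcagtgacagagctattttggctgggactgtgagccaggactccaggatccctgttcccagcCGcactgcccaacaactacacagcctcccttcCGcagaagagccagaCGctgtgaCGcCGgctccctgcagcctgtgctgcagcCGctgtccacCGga
The Pdgfra window held 5 CpG, and 62.0% of 32851 windows of this length held at least as many (median 7). The printed Pdgfa window held 37, a number reached by 5.58% of windows, and a second Pdgfa window at chr5:138994232-138994531 held 24 (19.98%). Pdgfc and Pdgfd held 8 each (48.7%). The TATA sequence TATAAA, searched on both strands, was found once, in Pdgfd, and occurs in 13.6% of windows. The GC box GGGCGG, searched on both strands, was found in the Pdgfa windows only, 2 times in the printed one and 1 time in the other, and occurs in 35.7% of windows. CCAAT, on both strands, was in none of the 5 windows and occurs in 37.4% of all. These matches describe letters, not occupied sites.

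Pdgfra (chr5:75152292-75198215, plus strand, GRCm38, GENCODE M21) was close to silent in the control and many times higher with DS3201. It had 4 and 29 reads in the control libraries of set 20 and set 28, or 0.190 and 1.95 CPM, with 95% exact Poisson intervals of 0.0518 to 0.487 and 1.30 to 2.80 CPM that cover counting error only. With the shRNA alone it reached 0.975 and 7.27 CPM. With DS3201 alone it reached 8.95 and 21.9 CPM, and with both 17.1 and 28.4 CPM (272 and 445 reads). In bulk RNA, fewer cells with a transcript and less of it per cell cannot be told apart.

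Read by library, every one of the 4 with DS3201 lay above every one of the 4 without it, and in each group set 28 was higher than set 20. Such a separation was found for 12.3% of all 15287 tested entries in this direction. The rule used this contrast, so nothing is read from that share. On the log2 scale Pdgfra differed by 3.88 ± 1.29 (SE) between inhibitor and control (4.88 and 3.42 within the sets). In the Ring1a shRNA cells the difference with DS3201 was 2.48 ± 1.18 (3.98 and 1.95 within the sets). The combined group exceeded the control by 4.45 ± 1.32. These fits count the gap between sets as spread. With the set as a block the 3 values were 4.15 ± 0.64, 2.96 ± 0.57 and 4.87 ± 0.65. When the inhibitor library of set 28 was left out of the block fit, the difference of inhibitor and control was 4.39.

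The Ring1a shRNA gave a smaller shift of Pdgfra that did not pass the test. The level was higher with the shRNA in 4 of 4 pairs within a set: by 1.83 and 1.84 log2 without DS3201 and by 0.92 and 0.37 log2 with it. Of all tested entries, 13.9% were higher in all 4 pairs. Without DS3201 the edgeR estimate was 1.97 ± 1.23 (adjusted p = 1, and adjusted p = 1 with the block at 1.90 ± 0.64). It ran from -0.08, without the knockdown library of set 28, to 4.37 when other single libraries were left out. With DS3201 it was 0.56 ± 1.12 (adjusted p = 1.00, and 0.621 with the block). The interaction, which asks whether the DS3201 effect differs with the knockdown, was -1.40 ± 1.64 (adjusted p = 1), with an SE larger than the value.

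Pdgfrb (chr18:61045150-61085061, plus strand) was the most abundant of the receptor genes and moved the other way. In sets 20 and 28 its level was 152.6 and 180.3 CPM with neither treatment and 176.7 and 219.6 CPM with the shRNA. DS3201 alone gave 67.8 and 49.5 CPM, and both treatments 68.2 and 71.9 CPM. Every library with DS3201 was below every library without it, as for 5.28% of tested entries. The rule used this contrast too, so nothing is read from that share.

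The log2 difference of Pdgfrb was -1.50 ± 0.24 between inhibitor and control (-1.17 and -1.86 within the sets) and -1.50 ± 0.24 between combined and knockdown (-1.37 and -1.61). Those 2 comparisons share no library, but both were used to choose the members, so neither stands as a test of the other. When the inhibitor library of set 28 was left out of the block fit, the former was -1.24. The combined group was -1.25 ± 0.23 against the control. For the Ring1a shRNA the edgeR estimates were 0.25 ± 0.23 without DS3201 (adjusted p = 1) and 0.26 ± 0.23 with it (adjusted p = 1.00). The sign was positive in 4 of 4 pairs within a set, though 1 of these, in set 20 with DS3201, was only 0.01. The interaction was 0.01 ± 0.33 (adjusted p = 1).

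**Figure D1:**
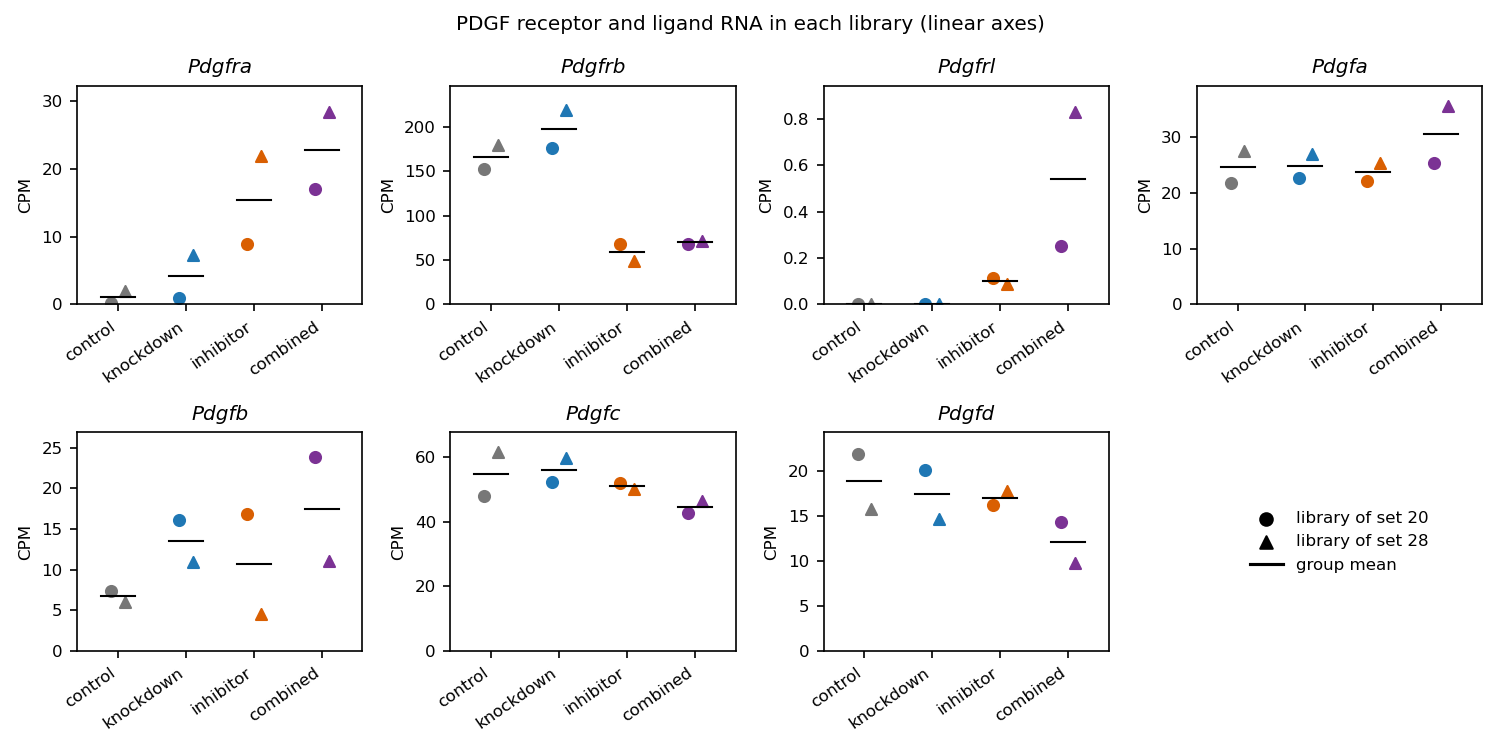
CPM of the 7 PDGF genes in each of the 8 libraries (1 panel a gene, linear axes starting at 0, circles for set 20, triangles for set 28, bars for the mean of the 2 libraries). Pdgfra goes from 0.190 and 1.95 CPM in the control to 17.1 and 28.4 CPM in the combined group, while Pdgfrb goes from 152.6 and 180.3 to 68.2 and 71.9.

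Together these shifts changed the makeup of receptor RNA. Scaled by length of merged exons (10.02 kb for Pdgfra and 5.478 kb for Pdgfrb), Pdgfra made up 0.0680% and 0.587% of the summed Pdgfra and Pdgfrb level in the control libraries of sets 20 and 28. The share was 0.301% and 1.78% in the knockdown, 6.73% and 19.5% with DS3201, and 12.0% and 17.8% with both. Pdgfrb RNA was still the larger part in all 8 libraries, by 4.13 to 1469 times on this scale. The summed level was 27.9 and 33.1 CPM per kb in the control and 13.3 and 11.2 CPM per kb in the inhibitor group, so that the gain of Pdgfra RNA was smaller than the loss of Pdgfrb RNA. With the longest transcript as the length, the inhibitor shares became 9.48% and 26.0% and the control shares 0.0987% and 0.849%.

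Pdgfrl (chr8:40926212-40990785, plus strand) was at the edge of detection and appeared only in libraries with DS3201. It had 0 reads in both control and both knockdown libraries, 2 and 1 reads with DS3201 alone and 4 and 13 with both, which is 0.251 and 0.830 CPM. Over the group, 17 reads in the combined libraries against 0 make it at least 6.45-fold higher than in the control and at least 7.08-fold higher than in the knockdown, with 3 counts over the lower group as the floor. With 1 library left out, the former bound ran from 2.67-fold (without the control library of set 20) to 9.95-fold and the latter from 2.67-fold (without the knockdown library of set 20) to 10.9-fold, both highest without the combined library of set 20. Without the combined library of set 28 they were 3.01-fold and 3.30-fold. Against the 3 reads of the inhibitor group the ratio was 5.20, with a 95% counting interval of 1.50 to 27.7. It was too low for a test across libraries.

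Among the ligand genes, Pdgfa, Pdgfc and Pdgfd ranged over 1.63, 1.45 and 2.24 times across the 8 libraries, and Pdgfb over 5.21 times, more than the 4.44 times of Pdgfrb. Pdgfa (chr5:138976014-138997370, minus strand), whose A chain binds receptor alpha alone, was at 21.8 and 27.6 CPM with neither treatment, 22.7 and 26.9 with the shRNA, 22.1 and 25.3 with DS3201, and 25.4 and 35.6 with both. Only the combined library of set 28 lay above the range of the others. The estimate for DS3201 was -0.06 ± 0.26 log2 in control cells and 0.30 ± 0.26 in Ring1a shRNA cells. For the shRNA it was 0.01 ± 0.26 (adjusted p = 1) without DS3201 and 0.36 ± 0.26 (adjusted p = 1.00) with it.

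Pdgfb (chr15:79995874-80014977, minus strand), whose B chain binds both receptors, was the ligand gene with the widest range, from 4.59 to 23.9 CPM. In sets 20 and 28 it had 7.41 and 6.04 CPM with neither treatment and 16.1 and 10.97 CPM with the shRNA. DS3201 alone gave 16.9 and 4.59 CPM, and both treatments 23.9 and 11.05 CPM. It was higher with the Ring1a shRNA in 4 of 4 pairs within a set, by 1.11 and 0.85 log2 without DS3201 and by 0.50 and 1.25 with it. The edgeR estimates of 1.01 ± 0.65 (adjusted p = 1, block 0.98 ± 0.38, adjusted p = 1) and 0.70 ± 0.64 (adjusted p = 1.00, block 0.78 ± 0.37, adjusted p = 0.594) did not pass. When the inhibitor library of set 20 was left out of the block fit, which leaves 1 library in that group, the latter became 1.51. For DS3201 in control cells the sets disagreed in sign, at 1.17 in set 20 and -0.39 in set 28, and the estimate was 0.68 ± 0.65. The interaction was -0.31 ± 0.91 (adjusted p = 1).

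Pdgfc (chr3:81036416-81214040, plus strand), whose C chain activates receptor alpha after its CUB domain is cleaved, was the steadiest member, with a range of 1.45 times over the 8 libraries. It had 47.95 and 61.7 CPM with neither treatment, 52.3 and 59.8 with the shRNA, 51.99 and 50.3 with DS3201, and 42.6 and 46.4 with both. Both combined libraries were below all 6 others. The estimates for the shRNA were 0.03 ± 0.20 without DS3201 (adjusted p = 1) and -0.20 ± 0.20 with it (adjusted p = 1.00).

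Pdgfd (chr9:6168584-6378850, plus strand), whose D chain binds receptor beta, had 21.9 and 15.8 CPM with neither treatment, 20.1 and 14.7 with the shRNA, 16.3 and 17.8 with DS3201, and 14.4 and 9.77 with both. It was lower with the shRNA in 4 of 4 pairs within a set, as were 13.8% of tested entries. The estimates were -0.11 ± 0.31 without DS3201 (adjusted p = 1) and -0.49 ± 0.31 with it (adjusted p = 1.00, and 0.594 with the block). When the inhibitor library of set 20 was left out of the block fit, which leaves 1 library in that group, the latter was -0.83. The combined group was lower than the control by -0.64 ± 0.31 log2, with within-set values of -0.60 and -0.69.

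**Figure D2:**
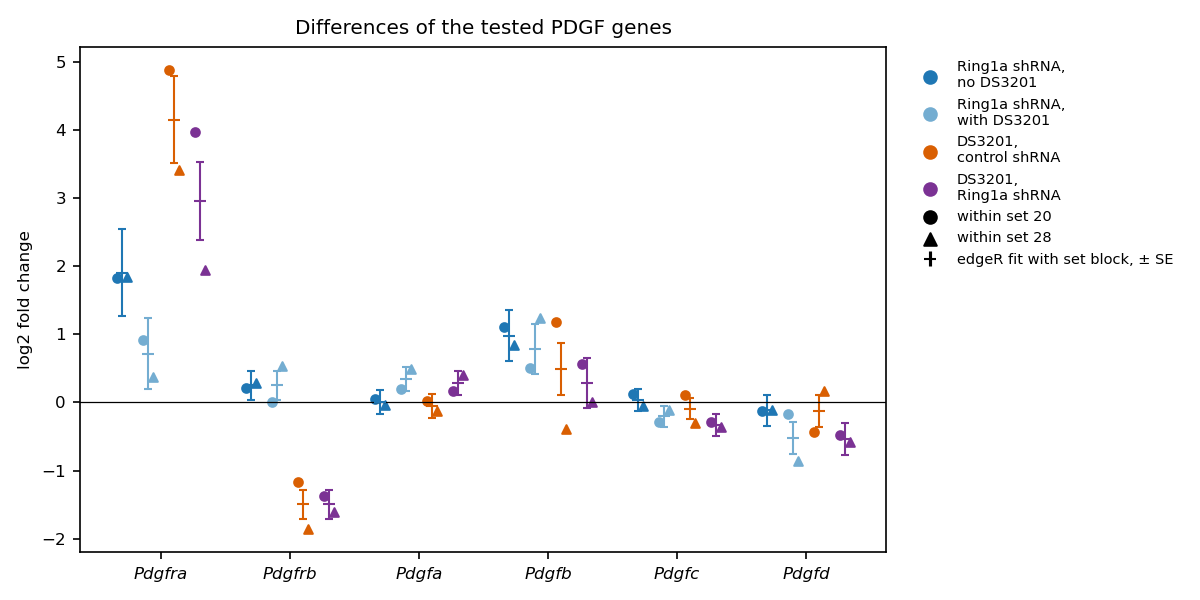
Log2 fold changes of the 6 tested PDGF genes for the Ring1a shRNA and for DS3201, each in both backgrounds (circles within set 20, triangles within set 28, bars for the edgeR fit with the set as block ± SE). The Pdgfra points for DS3201 lie between 1.95 and 4.88 and the Pdgfrb points between -1.86 and -1.17, and the Pdgfb points for DS3201 in control cells fall on both sides of 0.

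Counts of members past an adjusted p of 0.05 depended on the set term. In edgeR without the block, 0 of 6 tested members passed in either knockdown comparison or in the interaction, where 0% of the 15287 entries did (155, 272 and 23 entries at an unadjusted p under 0.05, and 1, 1 and 0 in DESeq2, none of them a member). With the block the share was also 0% in these 3. For DS3201 with control shRNA, 0 of 6 members passed without the block, where 0.726% of entries were called higher and 0% lower. With the block Pdgfra was higher and Pdgfrb lower, beside 6.62% and 0.706% of entries, and DESeq2 called the same 2 members. For DS3201 with Ring1a shRNA, 0 of 6 passed without the block (0.602% of entries higher, 0% lower) and again Pdgfra and Pdgfrb with it (6.05% and 0.824%), while DESeq2 called Pdgfrb alone. For the combined group against the control the shares were 1.43% and 0.0327% without the block, with 0 members, and 9.21% and 2.06% with it, with the same 2 members, and DESeq2 called both. These 3 comparisons were used to choose the members and nothing is read from the counts. The combined comparison shares its control libraries with that of DS3201 in control cells and its combined libraries with that in Ring1a shRNA cells.

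Per length, the ranges of the members did not overlap in the control, and some did with DS3201. In the control the means in CPM per kb of merged exons were 30.4 for Pdgfrb, 10.8 for Pdgfc, 7.92 for Pdgfa, 5.98 for Pdgfd, 1.62 for Pdgfb, 0.107 for Pdgfra and 0 for Pdgfrl, and no neighbours in this order overlapped. Pdgfa and Pdgfd nearly touched, at 6.99 and 6.95 in set 20. In CPM Pdgfd was the higher there (21.9 against 21.8), so the order of these members depends on the lengths used. The order was the same in the knockdown, again without overlap. In the inhibitor group Pdgfrb (10.7 CPM per kb) and Pdgfc (10.05) overlapped, as did Pdgfb (2.58) and Pdgfra (1.54). In the combined group Pdgfa (9.77) overlapped Pdgfc (8.75), and Pdgfb (4.20) overlapped Pdgfd (3.83). Pdgfra, at a mean of 2.27 (1.70 and 2.84), lay below both Pdgfd libraries and overlapped Pdgfb (2.66 to 5.75). With 2 libraries a group, overlap of ranges is the only measure of likeness here.

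**Figure D3:**
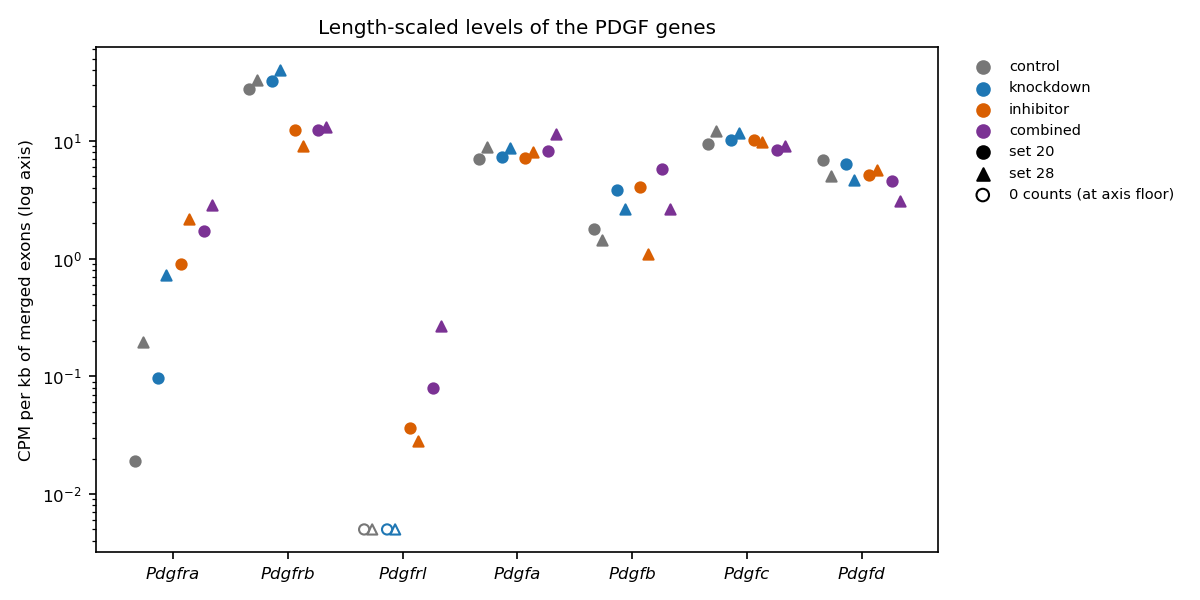
Length-scaled levels (CPM per kb of merged exons, log axis) of the 7 PDGF genes, with colours for the groups, circles for set 20, triangles for set 28 and open symbols at the axis floor for 0 counts. Pdgfrb goes from a control mean of 30.4 to 10.7 in the inhibitor group, next to Pdgfc at 10.05, and Pdgfra goes from 0.107 to 1.54.

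The receptors for Kit ligand, CSF1, FLT3 ligand and the VEGFs are the nearest relatives of the PDGF receptors, and of the 16 listed relatives and ligands 14 were tested. Flt4, the VEGF receptor of lymphatic endothelium, had 0.238 and 0 CPM with neither treatment, 0.731 and 0.538 with the shRNA, 25.5 and 21.8 with DS3201, and 37.99 and 50.02 with both. It rose with DS3201 by 7.39 ± 0.78 log2 in control cells (edgeR, adjusted p = 0.0184) and by 6.08 ± 0.68 in Ring1a shRNA cells (adjusted p = 0.0229). The former rests on 5 and 0 control reads and ran from 6.59 without the control library of set 28 to 11.57 without that of set 20, which leaves 0 reads and a value set by the prior count. Leaving out single libraries moved these adjusted p to between 0.0285 and 0.112 and between 0.0079 and 0.209, and the calls were lost in 5 and 6 of 8 such fits. Summed endothelial markers were 5.50 to 8.70 CPM in the control, 7.87 to 12.3 with the shRNA, 8.48 to 20.2 with DS3201 and 13.1 to 18.1 with both, with Cldn5 at 0 in all libraries and 1 of 8 markers at or above 1 CPM throughout. Of the 5 tested, 1 rose and 0 fell with DS3201 in control and in Ring1a shRNA cells with the block, and 0 passed without it. The list medians were 0.82 and 1.18 log2. The part of these markers in the Flt4 result was not tested.

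Kit, the stem cell factor receptor that lies next to Pdgfra on chromosome 5, had 0 reads in both control libraries, 0 and 0.0673 CPM with the shRNA, 0.170 and 1.15 with DS3201, and 1.19 and 2.81 with both. It rose with DS3201 in Ring1a shRNA cells only with the block (adjusted p = 0.0184, and 0.222 without it), where 63 reads against 1 make a ratio of 78.75 (95% counting interval 13.6 to 3159). In control cells it was at least 6.61-fold higher and did not pass (adjusted p = 0.0542 with the block). Flt3 had at most 0.319 CPM and was not tested. Csf1r (0.650 to 1.13 CPM), Kdr and Flt1 did not pass in either DS3201 comparison, with or without the block (Flt1 at 0.89 ± 0.25 in control cells, adjusted p = 0.0846 with the block).

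Among the ligands of these relatives, Figf, which encodes VEGF-D, a ligand of the Flt4 receptor, stood at 86.2 and 27.6 CPM without treatment and at 33.8 and 7.33 with DS3201 alone. It fell with DS3201 in the fit with the block, by -1.58 ± 0.22 log2 in control cells (adjusted p = 0.0103, and 0.6 without it) and by -2.20 ± 0.23 in Ring1a shRNA cells (adjusted p = 0.00349, and 0.571 without it). Kitl, Csf1, Il34, Flt3l, Vegfa, Vegfb, Vegfc and Pgf did not pass in those 2 comparisons. The largest of these differences was that of Il34, at -2.53 ± 0.81 in control cells with the block (adjusted p = 0.115).

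The wider pathway was read from 5 lists of 135 symbols, of which 131 were in the table and 126 were tested. Without the block, 1 of 126 rose with DS3201 in control cells and 1 in Ring1a shRNA cells, Flt4 in both, and 0 fell. The medians of 0.02 and -0.05 log2 stood beside 0.07 and 0.01 over all tested entries. With the block 8 rose and 2 fell in control cells, and 8 rose and 3 fell in Ring1a shRNA cells, which is 6.35% and 1.59%, and 6.35% and 2.38% of those tested, to be set beside the shares of all entries given above. Without the inhibitor library of set 28, 7 of the 10 kept their call and all 10 their direction, and those lost were Dusp4, Errfi1 and Fosb. In both knockdown comparisons and in the interaction 0 of 126 passed with or without the block.

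In the list of ligand processing and co-receptors, A2m, a protease inhibitor that also binds PDGF in serum, had 0 reads in all 4 libraries without DS3201 and 2.38 and 1.24 CPM with DS3201 alone, at least 23.2-fold higher. It passed with the block in control cells (adjusted p = 0.0213) and in Ring1a shRNA cells (0.0278), and not without it (0.0844 and 0.102). Pcsk5, a proprotein convertase, went from 0 reads in the knockdown to 0.691 and 2.56 CPM in the combined group, at least 21.2-fold higher (adjusted p = 0.0254 with the block). The list had 13 tested members, with medians of -0.21 and -0.15 log2.

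Of 49 tested signal transducers, Fyn, a Src family kinase, rose by 1.00 ± 0.15 log2 in control cells with the block (adjusted p = 0.0112). In Ring1a shRNA cells Grb10, an adaptor that binds growth factor receptors, rose by 4.24 ± 0.93 (adjusted p = 0.0421, lost without the inhibitor library of set 20 or of set 28). In the same cells Stat5a, a transcription factor activated by tyrosine kinases, fell by -1.02 ± 0.22 (adjusted p = 0.0408). None of these passed without the block, and the list medians were -0.16 and -0.11 log2.

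Among 22 tested negative regulators, which damp receptor signalling, 3 rose in control cells and 2 in Ring1a shRNA cells with the block, and 0 fell, where 6.62% and 6.05% of all entries rose and under 1% fell. Without the block 0 passed. Dusp4, a MAP kinase phosphatase, was at 4.28 and 20.5 CPM without treatment, 13.5 and 54.7 with DS3201, and 41.1 and 92.8 with DS3201 and the shRNA. It rose by 1.51 ± 0.28 log2 in control cells (adjusted p = 0.0236) and by 1.53 ± 0.27 in Ring1a shRNA cells (0.0199). Spred1, an inhibitor of Ras signalling, rose in control cells by 0.90 ± 0.18 (0.0328), Errfi1, a feedback inhibitor of ERBB receptors, by 0.83 ± 0.19 (0.0447), and Dusp1 in Ring1a shRNA cells by 1.27 ± 0.16 (0.00644). The list medians were 0.23 and 0.09 log2.

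Of 28 tested growth factor response genes, which include the immediate early genes that PDGF induces, 1 rose and 1 fell in control cells and 1 rose and 0 fell in Ring1a shRNA cells with the block, or 3.57% for each 1. The list medians were 0.14 and 0.18 log2. Klf4 was at 7.65 and 13.02 CPM without treatment, 32.2 and 29.1 with DS3201, and 52.4 and 48.4 with DS3201 and the shRNA. It rose with DS3201 with the block in control cells (1.61 ± 0.28, adjusted p = 0.0212) and in Ring1a shRNA cells (1.70 ± 0.28, adjusted p = 0.0162). In the combined group against the control it passed without the block too (2.29 ± 0.35, adjusted p = 0.0429), a call that was lost in 6 of 8 fits that left out 1 library. Fosb fell in control cells (-1.80 ± 0.41, adjusted p = 0.0454 with the block). In the combined comparison 2 of 126 pathway genes rose without the block, where 1.43% of all entries did. With it 14 rose and 7 fell, or 11.1% and 5.56%, beside 9.21% and 2.06% of all entries. Whether pathway genes were called more often than other entries was not tested. With the block Egr1 fell by -1.73 ± 0.33 (adjusted p = 0.0201) and Ctgf rose by 1.90 ± 0.38 (adjusted p = 0.0224). The Egr1 call was lost without the inhibitor library of set 20 or of set 28 (-1.70 and -1.72).

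**Figure D4:**
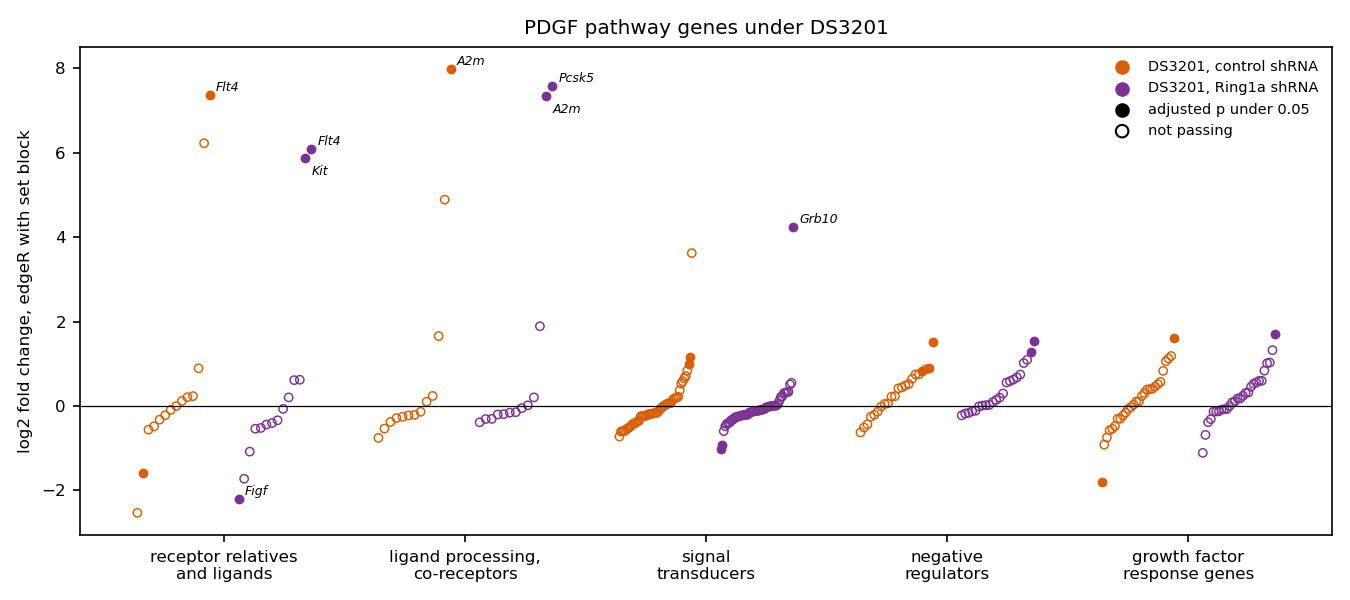
Log2 fold changes under DS3201 (edgeR with the set as block) of the 126 tested pathway genes in 5 lists, sorted within each list, with filled points for an adjusted p under 0.05. Most points lie near 0, and Flt4 stands at 7.37 and 6.08. The heights of A2m, Pcsk5 and Kit rest on groups with 0 or 1 reads, and that of Flt4 in control cells on 5, and depend on the prior count.

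The neighbouring genes differed between the receptor loci. Slc7a2, a cationic amino acid transporter gene that ends 3.904 kb before Pdgfrl on the same strand, had 0 reads in all 4 libraries without DS3201, 5.04 and 7.77 CPM with DS3201 alone, and 10.6 in both combined libraries. It was at least 73.2-fold higher with DS3201 in control cells (edgeR, adjusted p = 0.0303) and at least 140-fold higher in Ring1a shRNA cells (adjusted p = 0.0242). Its calls were lost in 6 of 8 fits that left out 1 library (adjusted p of up to 0.161 and 0.180) and held with the block (0.00519 and 0.00356). Its level, like that of Pdgfrl, was above 0 in the same 4 libraries, and the part of reads running on from Slc7a2 in the Pdgfrl count was not tested. Mtus1, on the other side of Pdgfrl, did not pass.

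Around Pdgfra, Kit (376.7 kb after it) is described above, while Chic2 and Kdr, the next genes on either side, did not pass and stayed at 18.01 to 34.8 CPM and 9.17 to 21.1 CPM. Gsx2, the nearest gene before Pdgfra, had at most 0.177 CPM. Around Pdgfrb, neither Slc6a7 nor Csf1r, 15.54 kb after it, nor Hmgxb3 passed with or without the block. In all, 28 neighbours of the 7 members were listed, 27 were in the table and 20 were tested. In control cells 1 of them rose with DS3201 with or without the block. In Ring1a shRNA cells 1 rose without the block, and 2 rose and 1 fell with it, the last being Casp12, 795.6 kb before Pdgfd (-1.10 ± 0.16, adjusted p = 0.0111). In the combined group against the control 1 rose without the block, and 4 rose and 1 fell with it, among them Fam20c near Pdgfa (0.75 ± 0.14, adjusted p = 0.0203) and Syngr1 near Pdgfb (3.53 ± 0.74, adjusted p = 0.0272). Of all tested entries 6.62%, 6.05% and 9.21% rose with the block in these 3 comparisons, and 0.706%, 0.824% and 2.06% fell. The 1 and 2 of 20 that rose lie near the share of all entries, and the 4 of 20 in the combined comparison lie above it. Each fall is that of 1 gene of 20. Whether neighbours were called more often than other genes was not tested.

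By Pearson correlation of log2 CPM over the 8 libraries, among 11958 genes with a mean of at least 1 CPM, the profiles most like that of Pdgfra were Cbln1 (r = 0.996), Macrod2 (0.991), Ccnd2 (0.991), Zcchc3 (0.988) and Chst2 (0.988). Cbln1, which encodes a secreted synapse organizer, had 0.0950 and 1.21 CPM with neither treatment, 0.528 and 3.43 with the shRNA, 5.95 and 11.8 with DS3201, and 11.5 and 20.6 with both, with set 28 above set 20 throughout as for Pdgfra. Those most like Pdgfrb were Ptpn23 (0.978), Ehbp1l1 (0.977), Snx12 (0.973), Scly (0.972) and Cox18 (0.970). Ptpn23, a tyrosine phosphatase of endosomal sorting, had 102.3 and 109.7 CPM without treatment and 79.1 and 70.2 with DS3201, a narrower change than that of Pdgfrb. The 8 points share groups and sets, so these correlations are descriptions.

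Marker lists of other cell types were read beside the receptors. Summed pericyte and smooth muscle markers, of which 5 of 13 were at or above 1 CPM in all libraries, were 1336 to 1602 CPM in the control, 1210 to 1410 in the knockdown, 675 to 840 with DS3201 and 876 to 981 with both. The sum is largely Acta2 (978 and 932 CPM in the control, 484 and 322 with DS3201): the 9 tested members had a median log2 fold change of 0.39 in control cells and 0.33 in Ring1a shRNA cells, and with the block 1, Acta2, fell and 0 rose in the former and 0 passed in the latter. Summed fibroblast markers were 23036 to 24765 CPM in the control, 20997 to 25298 with the shRNA, 14820 to 18459 with DS3201 and 15104 to 16251 with both. The medians of the 13 tested were -0.56 log2 with DS3201 in control cells and -0.57 in Ring1a shRNA cells. With the block 1 rose and 0 fell in the former, and 1 rose and 1 fell in the latter. In the combined group against the control 1 rose and 3 fell (7.69% and 23.1%, beside 9.21% and 2.06% of all entries). Without the block 0 passed. Oligodendrocyte precursor markers, of which 0 of 6 were at or above 1 CPM throughout, were 0.903 to 14.0 CPM in the control, 0.894 to 11.7 with the shRNA, 6.80 to 25.6 with DS3201 and 10.05 to 13.5 with both, ranges that overlap. The 1 marker tested was higher with DS3201 by 1.09 log2 in control cells and 0.86 in Ring1a shRNA cells. With the block these values were 1.69 and 2.07, and it did not pass in either fit. Macrophage markers (6 of 7 symbols found, 2 at or above 1 CPM throughout) were 8.72 to 21.1 CPM in the control, 7.54 to 20.9 with the shRNA, 14.2 to 16.0 with DS3201 and 12.6 to 19.5 with both. Of the 5 tested, 1 rose with DS3201 in control and in Ring1a shRNA cells, with or without the block. With the block 1 fell in control cells. The list medians were -0.09 and 0.19 log2. No PDGF gene is in these lists. The part of these levels in the PDGF receptor values was not tested. Antisense or other genes overlap Pdgfra, Pdgfa, Pdgfb, Pdgfc and Pdgfd (Ddi1 inside Pdgfd on the other strand, for example), and whether the counting used strand is not given in the sources used here, so reads of the overlapping parts cannot be told apart.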

How the data were processed

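Poly(A) RNA of 8 libraries in 4 groups was analysed. The authors deposited raw counts per gene symbol and repeat subfamily, whole numbers with no normalization. The submitters' processing notes name Trim Galore, TopHat2 and the build mm10. How reads were counted, strand included, is not given in the sources used here. A further 8 columns of the table fit none of the labels and were left out.

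The 7 members, the gene lists and the tests were chosen with earlier results of these data known. Counts were fitted in R 4.3.3 with edgeR 4.0.16 (filterByExpr with a count minimum of 10, TMM, robust quasi-likelihood F tests, two-sided, 1 term per group, all 8 libraries), with Benjamini-Hochberg adjustment over all 15287 tested entries and a threshold of 0.05. Standard errors are the log2 fold change divided by the square root of F. Log2 CPM used a prior count of 2. Floors of 3 counts and 95% exact intervals cover counting error only (reads are not independent molecules).

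The labels give each replicate number a batch but do not say which column prefix (20 or 28) belongs to which number. Deviations of the 2 prefixes correlated between groups with r from 0.559 to 0.897 across genes, and the prefix served as the replicate block of an alternative fit. DESeq2 1.42.0, its size factors in edgeR (RLE), no filter, gene rows only, only the groups compared, and each library left out were the other alternatives. The length of the longest transcript was added after the data were seen.

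Named genes were the 7 members, every tested receptor relative and its ligands, up to 4 other pathway genes per list, comparison and direction past the threshold, the 2 nearest protein-coding genes on each side, the 5 genes most like Pdgfra and the 5 most like Pdgfrb, and Ring1. Lengths and positions are from GENCODE M21 (GRCm38). The scripts were tested on simulated data. Some genes that this rule names are not reported here.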

Additional observations from a re-analysis of the deposited data

How the results depend on the processing

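Pdgfra and Pdgfrb kept their direction under DS3201 in all 16 alternatives of each DS3201 comparison. Of the alternative values of the members' log2 fold changes, 509 kept direction and side of the threshold, 32 newly passed and 29 changed sign. The count of members called, 0 in each comparison, became 2, 2 and 2 with the replicate block (DS3201 with control shRNA, with Ring1a shRNA, combined against control), 2, 1 and 2 in DESeq2, and 1, 1 and 1 with no low-count filter. With all 8 libraries the replicate block changed the call of no member other than Pdgfra and Pdgfrb. Leaving an inhibitor library out of the block fit changed which members passed. Pdgfra lost its call for DS3201 with Ring1a shRNA without that of set 20 or of set 28. With control shRNA it lost its call without that of set 28. For the knockdown with inhibitor, Pdgfrb and Pdgfb (higher) and Pdgfd (lower) passed only in the block fit without that of set 20. That fit leaves 1 library in the inhibitor group, so nothing is read from these calls. Pathway genes called, 1, 1 and 2 in the same 3 comparisons, became 10, 11 and 21 with the replicate block, 5, 7 and 11 in DESeq2 and 0, 0 and 0 with only the groups compared, which has no interaction. With 1 library left out and no block they ranged from 0 to 1, 0 to 1 and 0 to 2. In the block fit they were 53, 22 and 39 without the inhibitor library of set 20 and 7, 23 and 38 without that of set 28. Without that of set 20 they were also 34 for the knockdown with inhibitor and 18 for the interaction. A fit that leaves 1 library in a group assumes that it varies like the other groups.

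Sign changes were as follows. Leaving out single libraries, the Pdgfra knockdown without inhibitor ranged from -0.0837 to 4.37 and its interaction from -3.81 to 0.646. For Pdgfrb the interaction ranged from -0.162 to 0.251 (-0.0161 with gene rows only). Pdgfa ranged from -0.150 to 0.184 in the knockdown without inhibitor (-0.00657 with no low-count filter) and from -0.265 to 0.118 under DS3201 with control shRNA. Pdgfb ranged from -0.554 to 1.27 under DS3201 with control shRNA, from -0.300 to 0.817 with Ring1a shRNA and from -0.940 to 0.919 for the interaction. Pdgfc ranged from -0.135 to 0.225 in the knockdown without inhibitor and from -0.318 to 0.0881 under DS3201 with control shRNA, and Pdgfd from -0.379 to 0.148 and from -0.370 to 0.0540. In the block fit without the inhibitor library of set 20, DS3201 with control shRNA gave -0.208 for Pdgfb and 0.173 for Pdgfd, and the interaction of Pdgfb was 0.520. In that without the library of set 28, the knockdown with inhibitor gave -0.0196 for Pdgfrb and its interaction was -0.260. The cause was not tested. Depth limits Pdgfrl, with 0 to 13 reads a library, and Pdgfra in the control, with 4 and 29.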
